A study of Danio rerio with 4 samples.

Results

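Transcription factors that pattern the forebrain were examined in whole zebrafish embryos that lack or carry an intact nexn, the gene of the muscle Z-disc protein Nexilin. The genes were chosen by name: emx1, emx2, emx3, dlx1a, dlx2a, dlx5a, eomesa, tbr1b and otx2. Of these 9 names, 8 are gene names in the tables, which hold 32057 genes in all, and all 8 passed the filter on low counts. The name otx2 is absent and was dropped. The RefSeq gene table lists otx2 as an older name of otx2b, and otx2b is described beside the 8 genes without being counted with them. RNA of whole embryos was sequenced at 72 hpf (hours post fertilization) in 2 nexn-/- libraries and 2 nexn+/+ libraries, each from a pool of 25 embryos. The nexn-/- embryos carry a CRISPR/Cas9 deletion in exon 2 of nexn that shifts the reading frame, and the nexn+/+ embryos carry the intact gene. Each pool was spawned by adults of its own genotype, offspring of a heterozygous pair that were housed apart, so that genotype cannot be told apart from parentage and tank.

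These factors divide the anterior neural tube into regions and then help to specify its neurons. In the mouse, Emx genes are active in the pallium, the dorsal part of the telencephalon, where Eomes and Tbr1 act in turn in the lineage of excitatory, glutamatergic neurons. Dlx genes are active in the subpallium, its ventral part, where they act in the lineage of inhibitory neurons that use GABA. Otx2 is needed for the forebrain and midbrain as a whole and later for photoreceptors. None of the genes is restricted to the forebrain: Dlx genes also work in the pharyngeal arches and fins, Eomes and Tbr1 in the retina and Emx2 in the sensory hair cells of the ear and lateral line. In RNA of whole embryos these sites are summed, and fewer cells of a type and less RNA per cell cannot be told apart.

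The libraries held between 19413597 and 21956272 estimated counts. Levels are given as CPM, counts relative to the library total after TMM scaling, which aligns the bulk of genes between libraries, and 1 CPM stood for 17.6 to 22.9 counts. Log2(FC) compares nexn-/- with nexn+/+ embryos and is given with its standard error (SE). Calls required an adjusted p under 0.05 (edgeR's quasi-likelihood test, Benjamini-Hochberg adjustment) and a log2(FC) beyond 0.5 in either direction. Of 20312 tested genes, 6223 (30.6%) were called, with 16.7% higher in nexn-/- embryos and 13.9% lower, and for 70.9% the CPM of the genotypes did not overlap. The split was 3392 higher to 2831 lower with TMM, and 4414 to 1878 with library size alone as the scaling. At the same limits, the authors' paper reports fewer genes in each direction, by DESeq2. DESeq2 as run here called 2930 higher and 2730 lower, also more than the paper in each direction. The source of this gap was not tested. The nexn-/- replicates differed by a median of 0.134 per gene on the log2 scale and the nexn+/+ replicates by 0.222. The targeted gene nexn was lower in nexn-/- libraries (40.2 and 51.0 CPM) than in nexn+/+ libraries (96.3 and 75.4 CPM). Its log2(FC) was -0.91 (SE 0.168, adjusted p = 0.00737, edgeR). The authors' paper describes nexn mRNA as unaltered, by quantitative PCR, by in situ hybridization at an earlier stage and in its RNA sequencing. The log2(FC) that it prints for nexn from its RNA sequencing is nevertheless near the one here. With its adjusted p, that value passes the limits used here. All 10 organ markers checked for the labelled whole organism had counts. Of these, fabp10a (liver), cpa5 (exocrine pancreas), mpx (neutrophils), hbae1.1 (blood) and cryba1b (lens) were called higher, and elavl3 (neurons) and ttn.2 (titin of heart and muscle) lower. The muscle genes actc1b and myhz2 (log2(FC) of -0.01 and -0.23) and the skin gene krt4 (0.53) were not called. The part of such organ differences in the values of the forebrain factors was not tested. The nexn+/+ libraries differed in muscle RNA, with actc1b at 22701 CPM in replicate 1 and 7998 CPM in replicate 2, against 14820 and 15626 CPM in nexn-/- libraries.

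The T-box genes tbr1b and eomesa, which mark the excitatory lineage of the pallium, were called lower in nexn-/- embryos. The pallial genes emx1, emx2 and emx3 were not called, nor were the 3 Dlx genes of the inhibitory lineage. Whether these groups differ in log2(FC) was not tested. The wider pallial and subpallial lists described below had median log2(FC) values of -0.82 and -0.84. Of the 8 genes, 2 were called lower (25.0%, beside 13.9% of all tested genes) and 0 higher (beside 16.7%). Taken either way, 25.0% of the 8 genes were called, beside 30.6% of all tested genes. Without the fold limit 3 of 8 passed (beside 35.1% of all tested genes), all lower. At an unadjusted p under 0.05, 3 were lower and 0 higher, a count that was not made over all tested genes. DESeq2 called 2 lower and 0 higher, beside 2730 lower and 2930 higher of the 20312 tested genes. With limma-voom the 8 genes gave the same counts, beside 2845 lower and 3576 higher of all tested genes. The median log2(FC) of the 8 genes was -0.23, beside 0.02 over all tested genes. Leaving out nexn-/- replicate 1 gave a median of -0.10, leaving out nexn-/- replicate 2 one of -0.36, and library size alone one of -0.079, beside 0.17 over all tested genes. The CPM of the genotypes did not overlap in 5 of the 8 genes (beside 70.9% of all tested genes), with 4 lower (beside 34.4%) and 1 higher (beside 36.4%) in nexn-/- libraries.

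**Figure D1:**
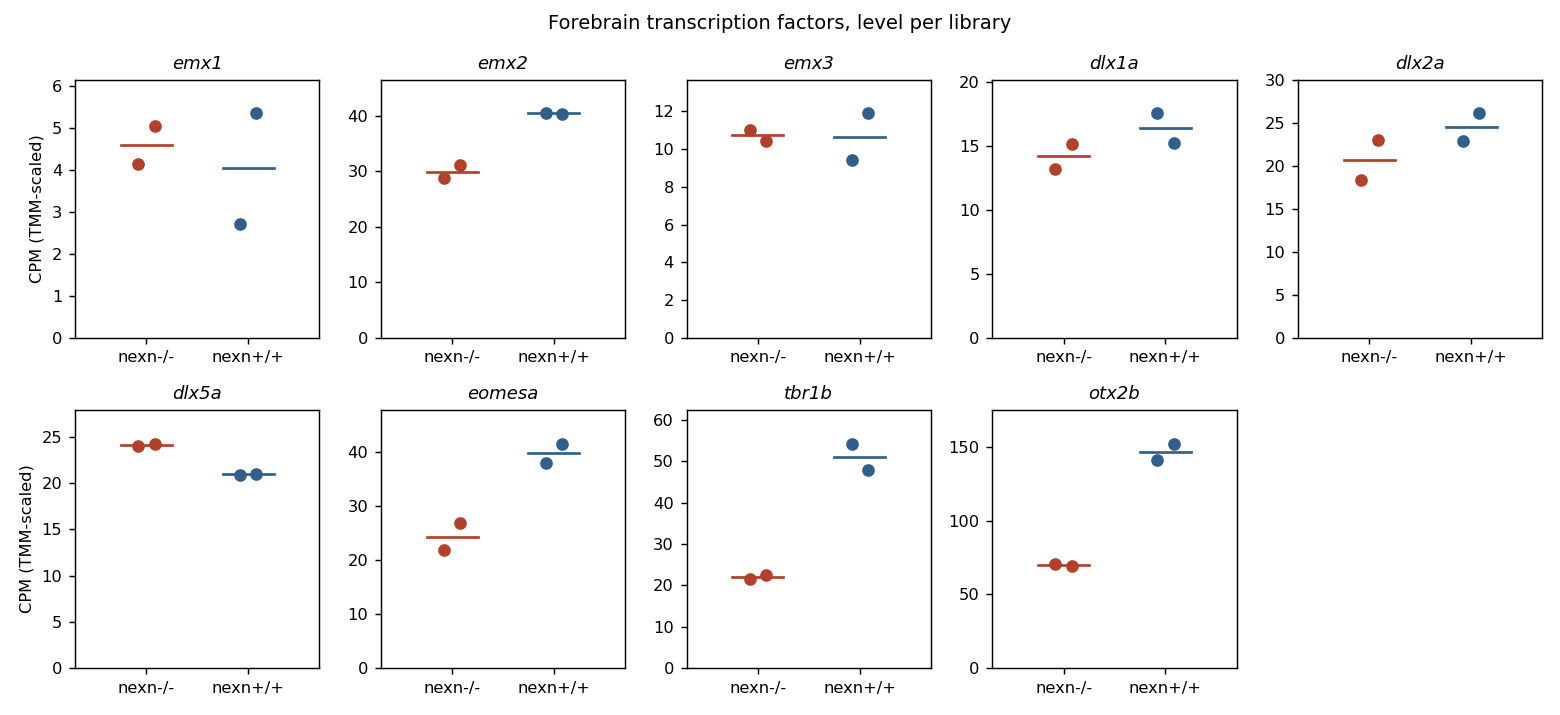
Level of the 8 forebrain factors and of otx2b in each library, as TMM-scaled CPM on axes that start at 0. Points are libraries, with nexn-/- in red on the left and nexn+/+ in blue on the right, and bars are means of 2 libraries. For tbr1b the nexn-/- libraries sit at 21.4 and 22.4 CPM, under the nexn+/+ libraries at 54.3 and 47.8 CPM, while for emx1 and emx3 the nexn-/- libraries sit within the range of the nexn+/+ libraries.

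The gene tbr1b (ENSDARG00000004712), a T-box factor of early-born glutamatergic neurons, was at 21.4 and 22.4 CPM in nexn-/- libraries, against 54.3 and 47.8 CPM in nexn+/+ libraries. It fell by 57.0%, a log2(FC) of -1.22 (SE 0.114, adjusted p = 0.00128, edgeR), and only 2.88% of all tested genes had a log2(FC) as low or lower. The gene eomesa (ENSDARG00000006640), a T-box factor of the progenitors that precede them in the mouse cortex, was at 21.7 and 26.9 CPM in nexn-/- and at 37.8 and 41.5 CPM in nexn+/+ libraries. It fell by 38.8%, a log2(FC) of -0.71 (SE 0.136, adjusted p = 0.00873, edgeR). Both nexn-/- libraries lay under both nexn+/+ libraries for each of these genes. Both calls held without either nexn+/+ library and were lost without either nexn-/- library. Without a nexn+/+ library the spread came from the nexn-/- pair alone. That pair differed less per gene than the nexn+/+ pair (medians of 0.134 and 0.222), so calls that held there do not show robustness. The lowest adjusted p in each range over the alternatives given here came from a fit without a nexn+/+ library. Without nexn-/- replicate 1 the log2(FC) was -1.19 for tbr1b (adjusted p = 0.0641, edgeR) and -0.56 for eomesa (adjusted p = 0.118, edgeR), and without nexn-/- replicate 2 it was -1.25 (adjusted p = 0.0635, edgeR) and -0.87 (adjusted p = 0.0694, edgeR). Each of these 2 fits took its spread from the nexn+/+ pair alone and called only 4 of all tested genes, and every other gene named here as called lost its call in them too. Over the 13 alternatives that were run, the adjusted p ran from 4.83e-24 to 0.0641 for tbr1b and from 9.09e-09 to 0.118 for eomesa.

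Close relatives of these T-box genes were barely expressed. The counts of tbr1a were 33 and 38 in nexn-/- and 15 and 30 in nexn+/+ libraries, with a log2(FC) of 0.40 (SE 0.407, adjusted p = 0.482, edgeR). Those of eomesb were 16 and 12 in nexn-/- and 24 and 30 in nexn+/+ libraries, with a log2(FC) of -1.20 (SE 0.413, adjusted p = 0.0614, edgeR). Neither was called, and with counts this low their intervals are wide.

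The Emx genes encode homeodomain factors of the dorsal telencephalon, and emx2 was the most abundant of them. It (ENSDARG00000039701) was at 28.7 and 31.1 CPM in nexn-/- and at 40.4 CPM in both nexn+/+ libraries. Its log2(FC) of -0.43 (SE 0.104, adjusted p = 0.0193, edgeR) passed the limit on p but not that on fold change, so that it was not called, with both nexn-/- libraries lower, and its adjusted p lay between 0.00175 and 0.214 over the alternatives. The gene emx3 (ENSDARG00000020417) was at 11.0 and 10.5 CPM in nexn-/- and at 9.40 and 11.9 CPM in nexn+/+ libraries. Its genotypes overlapped, and the log2(FC) of 0.01, which was -0.0023 with DESeq2, had a 95% interval from -0.42 to 0.43. The gene emx1 (ENSDARG00000039569) was at 4.13 and 5.03 CPM in nexn-/- and at 2.72 and 5.34 CPM in nexn+/+ libraries, from 48 to 115 counts. The nexn+/+ replicates of emx1 enclosed both nexn-/- values. Its log2(FC) of 0.18 had a 95% interval from -0.65 to 1.00, and it hung on the nexn+/+ replicates, since leaving out nexn+/+ replicate 1 gave a log2(FC) of -0.22 and leaving out nexn+/+ replicate 2 one of 0.75, where emx1 was called higher (adjusted p = 0.029, edgeR, against 0.0290 to 0.975 over all alternatives).

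The Dlx genes, homeodomain factors that in the forebrain mark the inhibitory lineage, showed no call among dlx1a, dlx2a and dlx5a. The gene dlx1a (ENSDARG00000013125) was at 13.2 and 15.2 CPM in nexn-/- and at 17.6 and 15.3 CPM in nexn+/+ libraries, a log2(FC) of -0.21 with a 95% interval from -0.56 to 0.15. Its neighbour dlx2a (ENSDARG00000079964) was at 18.4 and 23.0 CPM in nexn-/- and at 22.9 and 26.2 CPM in nexn+/+ libraries, a log2(FC) of -0.24 with an interval from -0.60 to 0.12. The genotypes overlapped for dlx2a, and those of dlx1a were separated by 15.2 against 15.3 CPM only. The gene dlx5a (ENSDARG00000042296) was at 24.0 and 24.3 CPM in nexn-/- and at 20.9 and 21.0 CPM in nexn+/+ libraries. Of the 8 genes it was the only one with both nexn-/- libraries above both nexn+/+ libraries, at a log2(FC) of 0.21 (interval -0.06 to 0.47, adjusted p = 0.193, edgeR). The intervals of dlx1a and dlx2a reach beyond the fold limit on the lower side, so equal expression is not shown.

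Zebrafish dlx genes stand in neighbouring pairs. In the gene order of the GRCz12tu assembly, dlx1a neighbours dlx2a, dlx5a neighbours dlx6a, and dlx3b neighbours dlx4b, while dlx4a and dlx2b have no dlx neighbour. The partner of dlx5a, dlx6a, was at 7.94 and 9.58 CPM in nexn-/- and at 9.23 and 8.72 CPM in nexn+/+ libraries. Its log2(FC) was -0.03 with TMM, 0.11 with library size alone and 0.069 with upper quartile scaling, and it was not called. The pair of dlx3b and dlx4b, active in the pharyngeal arches and the ear placode, was called higher. The gene dlx3b was at 39.6 and 43.5 CPM in nexn-/- and at 24.8 and 22.9 CPM in nexn+/+ libraries, a log2(FC) of 0.80 (SE 0.112, adjusted p = 0.00298, edgeR). The gene dlx4b was at 6.73 and 6.43 CPM in nexn-/- and at 2.83 and 3.58 CPM in nexn+/+ libraries, a log2(FC) of 1.03 (SE 0.232, adjusted p = 0.015, edgeR). The gene dlx4a rose most of the family, to 17.1 and 19.2 CPM in nexn-/- against 4.82 and 4.49 CPM in nexn+/+ libraries, a log2(FC) of 1.96 (SE 0.165, adjusted p = 0.00114, edgeR). The gene dlx2b, the copy of dlx2a, fell to 3.41 and 3.02 CPM in nexn-/- against 6.35 and 5.09 CPM in nexn+/+ libraries, a log2(FC) of -0.83 (SE 0.242, adjusted p = 0.0372, edgeR). Its call was lost with DESeq2, library size alone, upper quartile scaling and the replicate number as a block (adjusted p = 0.0505 to 0.0840, edgeR or DESeq2) and without either nexn-/- library, in a range from 0.000810 to 0.256 over the alternatives.

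**Figure D2:**
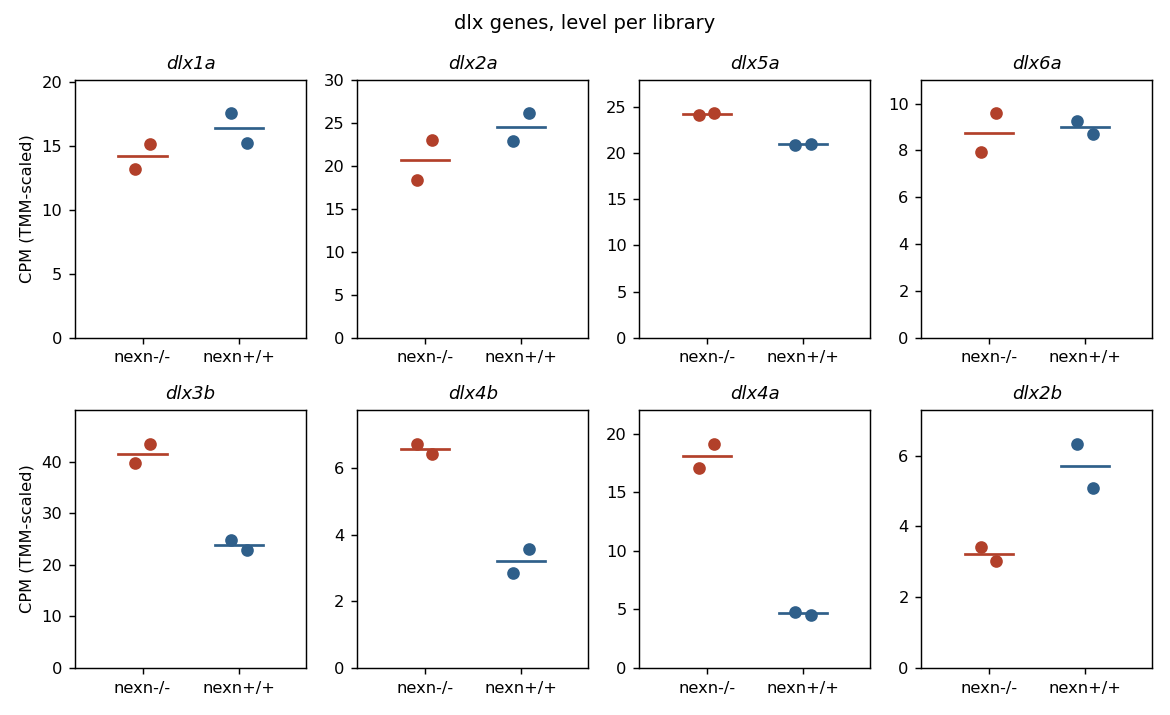
Level of 8 dlx genes in each library, as TMM-scaled CPM on axes that start at 0, with nexn-/- in red on the left, nexn+/+ in blue on the right and bars at the means. In the pairs dlx1a and dlx2a, and dlx5a and dlx6a, the genotypes lie close together, whereas dlx3b, dlx4b and dlx4a are higher in both nexn-/- libraries and dlx2b is lower.

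The gene otx2b (ENSDARG00000011235), the zebrafish counterpart of Otx2, was at 70.5 and 69.4 CPM in nexn-/- and at 141 and 152 CPM in nexn+/+ libraries. It fell by 52.4%, a log2(FC) of -1.07 (SE 0.107, adjusted p = 0.00134, edgeR). The other orthodenticle genes moved the same way. The gene otx1, active with otx2b in the anterior brain, was at 24.1 and 25.2 CPM in nexn-/- and at 49.0 and 45.6 CPM in nexn+/+ libraries, a log2(FC) of -0.94 (SE 0.105, adjusted p = 0.00163, edgeR), and otx2a had a log2(FC) of -0.95 (SE 0.201, adjusted p = 0.0118, edgeR). Relatives that work in photoreceptors and the pineal gland were lower as well, with a log2(FC) of -1.33 for crx (SE 0.153, adjusted p = 0.00173, edgeR) and -0.77 for otx5 (SE 0.161, adjusted p = 0.0113, edgeR). As with tbr1b, the call of otx2b was lost without either nexn-/- library (adjusted p = 0.0641 and 0.0635, edgeR, over a range from 5.08e-24 to 0.0641), while its log2(FC) stayed between -1.12 and -0.93 over the 13 alternatives. Over the 12 listed relatives of the forebrain factors, otx2b included, 6 were called lower (50%, beside 13.9% of all tested genes) and 3 higher (beside 16.7%), with 5 to 6 lower over the alternatives of tool, scaling, filter and block.

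**Figure D3:**
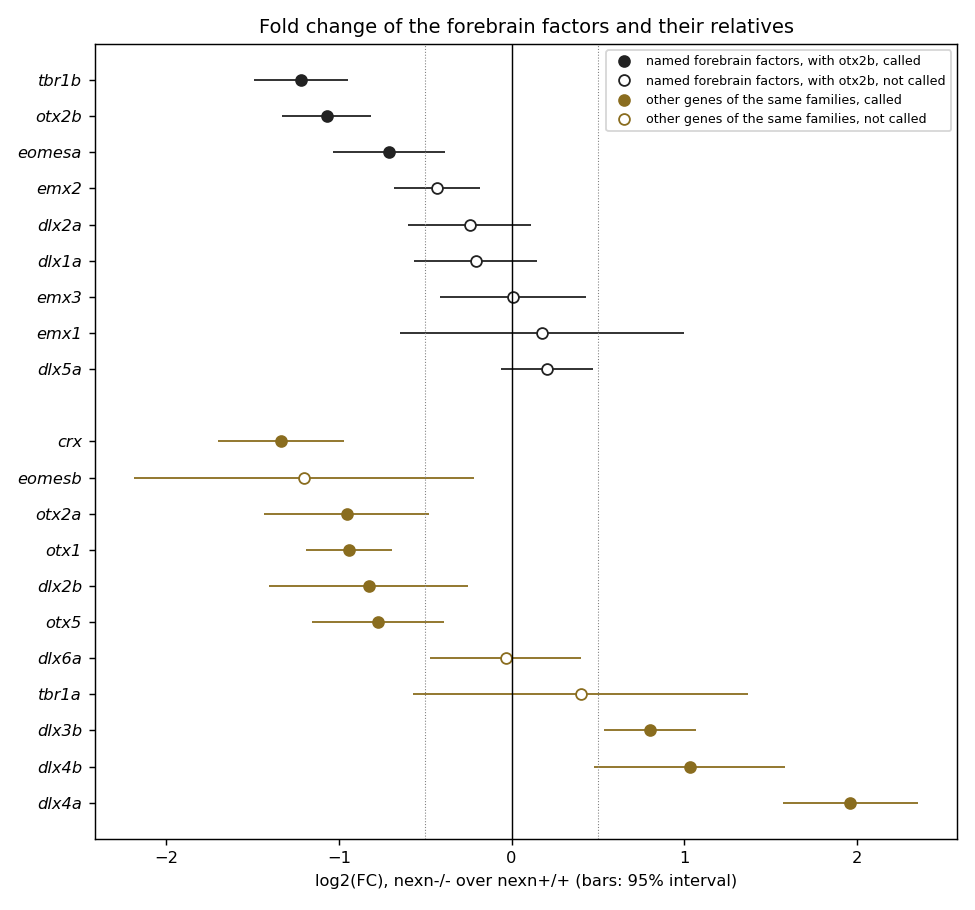
Log2(FC) of the forebrain factors with otx2b (black) and of the other genes of their families (ochre), nexn-/- over nexn+/+, with 95% intervals as bars and dotted lines at the fold limit of 0.5 in each direction. Filled points were called. The black points run from -1.22 for tbr1b to 0.21 for dlx5a, and the ochre points from -1.33 for crx to 1.96 for dlx4a.

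Levels of different genes were compared by the deposited TPM, which is scaled to gene length. In nexn-/- embryos the order was dlx5a (27.0 ± 0.643 TPM, SD, n = 2), emx2 (20.1 ± 0.615), dlx1a (17.3 ± 1.13), dlx2a (16.7 ± 2.13), eomesa (12.5 ± 1.58), emx1 (5.46 ± 0.594), emx3 (4.57 ± 0.269) and tbr1b (4.30 ± 0.0354). In nexn+/+ embryos it was emx2 (24.3 ± 2.98 TPM, SD, n = 2), dlx5a (20.9 ± 2.69), eomesa (18.4 ± 3.42), dlx1a (17.8 ± 0.509), dlx2a (17.8 ± 3.87), tbr1b (8.89 ± 0.276), emx1 (4.42 ± 2.52) and emx3 (4.09 ± 1.16). In nexn-/- embryos dlx1a overlapped with dlx2a, and the other neighbours in the order did not overlap between libraries. In nexn+/+ embryos each of the first 4 genes overlapped with the next, and so did emx1 with emx3, whereas tbr1b overlapped with neither of its neighbours. Within each nexn+/+ library, however, emx2 was above dlx5a and dlx5a above eomesa. The order of eomesa and dlx1a, of dlx1a and dlx2a, and of emx1 and emx3 changed between the nexn+/+ libraries. The gene tbr1b stood in place 8 of 8 in nexn-/- and in place 6 in nexn+/+ embryos, and eomesa in place 5 in nexn-/- and in place 3 in nexn+/+ embryos. The effective length of tbr1b was 5897 to 5919 nucleotides and that of dlx1a 941 to 959, so that their order in TPM is not that in CPM. The level of otx2b was 43.3 ± 1.86 TPM in nexn-/- and 81.5 ± 15.0 TPM in nexn+/+ embryos (SD, n = 2), above all 8 genes in both genotypes.

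Most other genes listed for the excitatory lineage were lower in nexn-/- embryos. Of 17 tested genes of the pallium and of excitatory neurons, 14 were called lower (82.4%, beside 13.9% of all tested genes) and 0 higher, with a median log2(FC) of -0.82, and DESeq2 and limma-voom each gave the same counts. At an unadjusted p under 0.05 there were 14 lower and 2 higher. RNA of whole embryos does not tell the pallium from other sites of these genes. The retinal and pan-neuronal lists described below had medians of -0.94 and -0.91. The largest falls were those of bhlhe22, a helix-loop-helix repressor of projection neurons, to 57.2 and 59.0 CPM in nexn-/- against 127 and 154 CPM in nexn+/+ libraries, and of fezf2, which specifies deep-layer neurons in the mouse, to 16.3 and 18.7 CPM in nexn-/- against 33.4 and 44.2 CPM in nexn+/+ libraries. Their log2(FC) values were -1.27 (SE 0.129) for bhlhe22 and -1.15 (SE 0.164) for fezf2. With library size alone as the scaling, 13 genes of this list were called lower and 2 higher.

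In the subpallial list, which joins transcription factors with genes of GABA signalling, 14 of 23 tested genes were called lower (60.9%) and 0 higher, with a median of -0.84. No gene was higher at an unadjusted p under 0.05 either, and DESeq2 and limma-voom each called 14 lower and 0 higher. As for the pallial list, RNA of whole embryos does not tell the subpallium from other sites of these genes. The largest falls were those of npy, a neuropeptide of interneurons, with a log2(FC) of -1.69 (SE 0.278) at 1.44 and 1.53 CPM in nexn-/- against 5.33 and 4.28 CPM in nexn+/+ libraries, and of gad1b. The gene gad1b, for an enzyme that makes GABA, was at 87.5 and 91.1 CPM in nexn-/- and at 288 and 269 CPM in nexn+/+ libraries, a log2(FC) of -1.64 (SE 0.114). The list was split by function after its values had been seen. Its 6 genes of GABA synthesis and transport had a median of -1.32, with 5 called lower, and its 15 transcription factors had a median of -0.33, with 7 called lower. Of all tested genes, 13.9% were called lower. The 15 factors include an ascl1b row with only 13 to 20 counts per library, which was not called (log2(FC) of 0.05). Among the 15 factors, arxa and lhx6 had log2(FC) values of -0.09 and -0.05. In the mouse both act downstream of Dlx genes in interneurons, and they were singled out after their values had been seen. These 2 genes do not stand for the 15 factors. The 7 called lower included sp9 (log2(FC) of -0.99), gsx2 (-0.92), ascl1a (-0.89) and nkx2.1 (-0.84), and 0 were called higher. Whether the GABA genes differ from dlx1a, dlx2a, dlx5a, arxa and lhx6 in log2(FC) was not tested.

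Many regulators of other brain regions were also lower. Of 24 tested genes of the diencephalon, hypothalamus and eye field, 18 were called lower (75.0%) and 0 higher (median -0.98, with 1 gene higher at an unadjusted p under 0.05 and 0 with DESeq2 or limma-voom). They were led by six3b with a log2(FC) of -1.35 (SE 0.103) and pax6a with -1.29 (SE 0.119), both factors of eye and forebrain. Of 23 genes of the midbrain and hindbrain, 9 were called lower (39.1%) and 0 higher (median -0.42, with 0 higher at an unadjusted p under 0.05 and 0 with DESeq2 or limma-voom). They were led by en2a with -1.08 (SE 0.128) and en2b with -1.02 (SE 0.123), factors of the boundary between these regions. Beside these shares, 13.9% of all tested genes were called lower and 16.7% higher. Whether the median of one region differs from that of another was not tested.

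**Figure D4:**
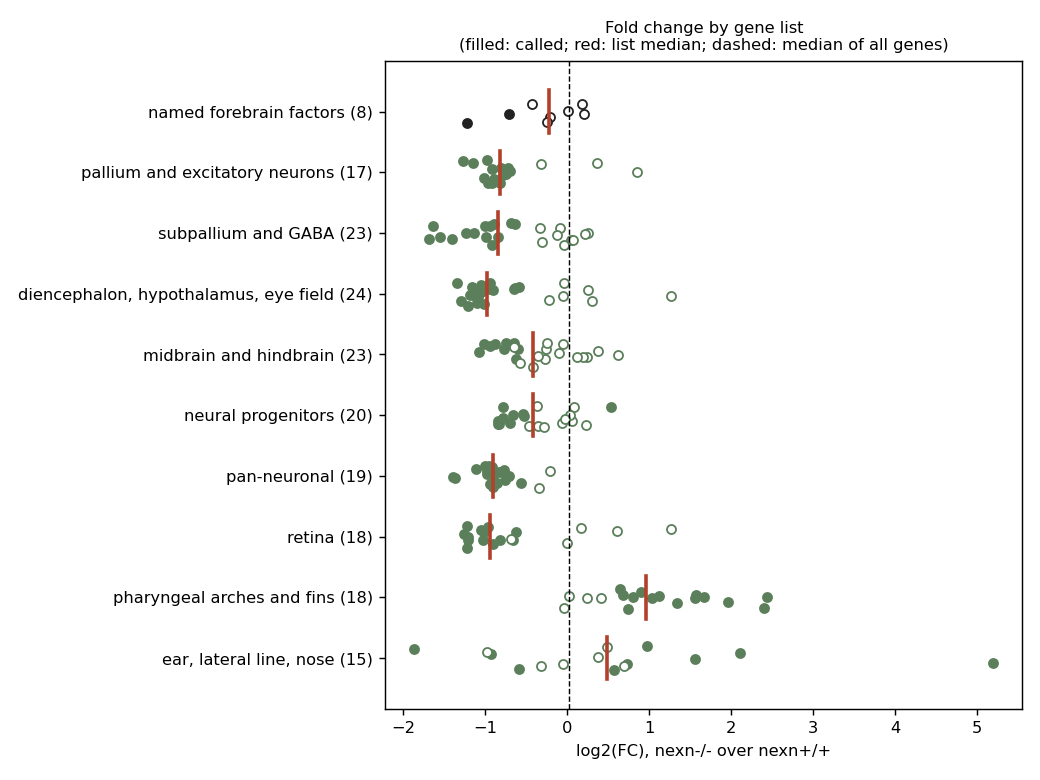
Log2(FC) of single genes, nexn-/- over nexn+/+, in the forebrain factors (black) and 9 comparison lists (green), with the number of tested genes in parentheses. Filled points were called, red bars are list medians and the dashed line is the median of all tested genes, 0.02. The median of the forebrain factors is -0.23, that of the pan-neuronal genes -0.91 and that of the pharyngeal arch and fin genes 0.96.

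Markers of neurons in general moved with these genes. Of 19 pan-neuronal genes, 17 were called lower (89.5%) and 0 higher, with a median log2(FC) of -0.91, and they were summed to 3212 and 3189 CPM in nexn-/- and to 6240 and 5934 CPM in nexn+/+ libraries. No gene of this list was higher at an unadjusted p under 0.05 or with DESeq2 or limma-voom. Over all tested genes, the shares called were 13.9% lower and 16.7% higher. The largest falls were those of snap25b and syt1a, of synaptic vesicle release, with log2(FC) values of -1.39 (SE 0.116) and -1.37 (SE 0.125). Genes of neural progenitors and radial glia were called lower in 9 of 20 (45.0%) and higher in 1 (median -0.42), led by msi1 with -0.85 (SE 0.109) and fabp7a with -0.84 (SE 0.129). The gene called higher was nes, with a log2(FC) of 0.53, and DESeq2 did not call it. The other 10 progenitor genes were not called. They include gfap (log2(FC) of 0.08), pcna (-0.06) and mki67 (-0.03), named after their values were seen. The sum over the 20 genes was 2027 and 2042 CPM in nexn-/- libraries, against 2764 and 2718 CPM in nexn+/+ libraries. Its largest term in every library was fabp7a, so the sum does not stand for the single genes. The part of the neuronal level in the values of the forebrain factors was not tested.

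The forebrain factors were also set against the summed pan-neuronal genes of the same library. This scale was chosen after the fall of the neuronal genes had been seen, and its ratios are a description with no test. The sum in nexn-/- libraries was 0.526 times that in nexn+/+ libraries, so a gene with equal CPM in all libraries has a ratio of 1.90 on this scale, and a ratio of 1 means a fall in step with the neuronal genes. The ratio was 1.91 for emx3, 2.14 for emx1 and 2.19 for dlx5a, at or above the value of an unchanged gene. It was 1.65 for dlx1a, 1.60 for dlx2a and 1.41 for emx2, between the values of an unchanged gene and of a fall in step with the neuronal genes. For eomesa the ratio was 1.16, and its genotypes overlapped on this scale. For tbr1b it was 0.818, at 6.68 and 7.02 CPM per 1000 CPM in nexn-/- libraries, against 8.70 and 8.06 in nexn+/+ libraries, and for otx2b it was 0.904. In both of these genes the nexn-/- libraries stayed under the nexn+/+ libraries, for otx2b narrowly, at 21.9 and 21.8 against 22.7 and 25.7. How many of all tested genes separate on this scale was not counted, so a fall beyond that of the neuronal genes is not shown. Of the 19 pan-neuronal genes, 2 had a lower log2(FC) than tbr1b, 16 a lower one than eomesa and 17 to 19 a lower one than each of the other 6 genes.

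**Figure D5:**
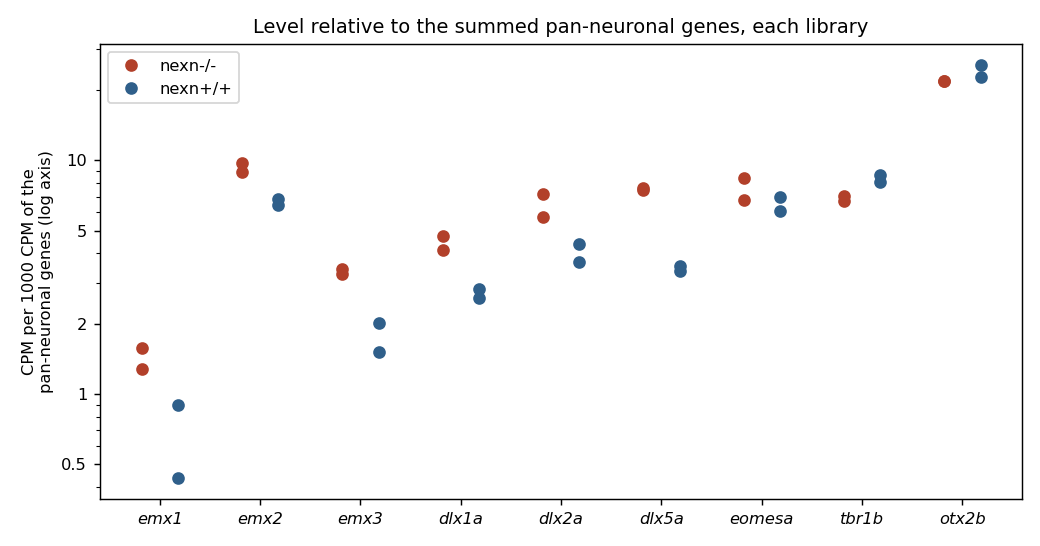
Level of each forebrain factor and of otx2b per 1000 CPM of the 19 pan-neuronal genes in the same library, on a log axis, with nexn-/- in red on the left and nexn+/+ in blue on the right of each pair. Points are libraries. A gene with equal CPM in all libraries would lie 1.90 times higher in nexn-/- libraries, because the sum itself was lower there, so the distance between the genotypes is to be read against that value. The points overlap for eomesa, and the nexn-/- points are lower for tbr1b and, narrowly, for otx2b.

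Sites outside the forebrain that use the same factors differed in direction. Of 18 retinal genes, 13 were called lower (72.2%, beside 13.9% of all tested genes) and 0 higher, with a median log2(FC) of -0.94. The retinal genes summed to 913 and 941 CPM in nexn-/- libraries, against 1394 and 1750 CPM in nexn+/+ libraries. No retinal gene was higher at an unadjusted p under 0.05 or with DESeq2 or limma-voom, and with the replicate number as a block 14 were called lower and 1 higher. The largest falls were those of atoh7, needed for retinal ganglion cells, with -1.26 (SE 0.295), and vsx1, of bipolar cells, with -1.23 (SE 0.151). Of 18 genes of the pharyngeal arches and fins, 14 were called higher (77.8%, beside 16.7% of all tested genes) and 0 lower, with a median of 0.96 and sums of 922 and 929 CPM in nexn-/- libraries, against 468 and 314 CPM in nexn+/+ libraries. This list includes dlx3b, dlx4a, dlx4b and dlx6a, none of its genes was lower at an unadjusted p under 0.05, and DESeq2 and limma-voom each called 14 higher and 0 lower. It was led by barx1, at 15.8 and 18.1 CPM in nexn-/- libraries, against 2.21 and 3.98 CPM in nexn+/+ libraries, and by hand2, at 22.9 CPM in both nexn-/- libraries, against 4.87 and 3.83 CPM in nexn+/+ libraries, both factors of arch skeleton. Their log2(FC) values were 2.44 (SE 0.274) for barx1 and 2.4 (SE 0.170) for hand2.

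Of 15 genes of the ear, lateral line and nose, 6 were called higher (40.0%, beside 16.7% of all tested genes). In the same list 3 were called lower (20.0%, beside 13.9%), and the median was 0.48. Of these genes, hmx2 and hmx3a also stand in the diencephalon list and atoh1a in the midbrain and hindbrain list. The genes called higher were led by otomp, an otolith matrix gene, with a log2(FC) of 5.20 (SE 0.279) at 12.6 and 15.2 CPM in nexn-/- libraries, against 0.397 and 0.353 CPM in nexn+/+ libraries, and by trpc2b, a channel of olfactory neurons, with 2.1 (SE 0.483) at 2.24 and 1.66 CPM in nexn-/- libraries, against 0.283 and 0.605 CPM in nexn+/+ libraries. The 3 genes called lower, named after their values were seen, were ompa, pou4f3 and hmx3a. The gene ompa, a marker of olfactory neurons, was at 8.21 and 6.91 CPM in nexn-/- libraries, against 22.7 and 32.4 CPM in nexn+/+ libraries, a log2(FC) of -1.86 (SE 0.206), so that the olfactory markers did not move one way. The hair cell factor pou4f3 had a log2(FC) of -0.92 (SE 0.281) and hmx3a one of -0.59 (SE 0.133). With library size alone or upper quartile scaling, 7 genes of the list were called higher and only ompa lower. The part of the retina, arch, fin, ear and nose in the values of dlx2a, dlx5a, emx2, eomesa, tbr1b and otx2b was not tested.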

How the data were processed

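Per the labels, the samples were 2 nexn-/- and 2 nexn+/+ libraries of whole embryos, and groups and replicate numbers came from the sample titles. The authors' provider mapped paired reads to GRCz11, and the submitters' processing notes name STAR and RSEM, with versions, annotation release and use of strand not given in the sources used here. The authors deposited estimated counts per gene, not normalized, with TPM and FPKM values scaled to library total and effective length. All column headings carry 1 library's name, so each table's library was taken from its deposition record. 

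The estimated counts were rounded. The main test was that of edgeR 4.0.16 under R 4.3.3 (filterByExpr, TMM, quasi-likelihood test on genotype, Benjamini-Hochberg adjustment over 20312 genes). It was also tested on simulated data, drawn with the spread that edgeR itself had fitted, which does not show how the test suits the real counts. The common biological coefficient of variation was 0.146. Intervals came from the SE and its degrees of freedom. The p-values measure the spread between pools. Alternatives were DESeq2 1.42.0, limma-voom (limma 3.58.1), other scalings, filters and fold limits, the replicate block, effective lengths from deposited counts and FPKM as offset, and each library left out.

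Members and lists were chosen with earlier results of these data known. Named were the members, called relatives and, in each other list, the 2 called genes with the largest absolute log2(FC) at a mean of at least 1 CPM, besides organ markers, uncalled relatives and nes, named after their values were seen. The names ascl1b and cplx2 each cover 2 gene rows, counted separately. Of 32057 gene IDs, 28988 were in a separate name table, and the names of 8 members were in a RefSeq table of GRCz12tu, used only for names and neighbours. In that table dlx1a, dlx5a, eomesa, tbr1b, otx2b, dlx2b and dlx6a overlap other genes, whose reads may be split by the counting. 1 further listed forebrain factor and its relatives are not reported here and are left out of the counts over members and relatives. Sequences were not used here.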

Additional observations from a re-analysis of the deposited data

How the results depend on the processing

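No member has 3 counts or fewer in a genotype, so a median with lower bounds was not run. The calls of tbr1b and eomesa, and no call of a member higher, held under 9 alternatives of tool, scaling, filter, block and effective length. With no fold limit 3 members were lower and 7133 genes called, and with a log2(FC) limit of 1, 1 member was lower and 3140 genes were called, 2218 higher and 922 lower. Scaled by library size alone, 1878 genes were lower, the median of all tested genes was 0.17 in place of 0.02 (upper quartile: 0.13), and the members' median was -0.079 in place of -0.23. With each library left out, that median lay between -0.36 and -0.10, the members called lower between 0 and 2, higher between 0 and 1, in all between 0 and 3, and all genes called between 4 and 8511, higher between 4 and 4934 and lower between 0 and 3577. The lone library of a genotype is then assumed to vary like the other pair. The log2(FC) of emx3 was -0.0023 with DESeq2, -0.0026 with median-of-ratios scaling and, with each library left out, -0.15 to 0.19, below 0 without replicate 1 of either genotype. That of emx1 was -0.22 to 0.75 with each library left out. That of dlx6a was 0.11 scaled by library size, 0.069 by the upper quartile, and -0.17 to 0.094 with each library left out.

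The replicate numbers were not shown to pair the libraries (correlation of replicate differences between genotypes -0.031). The replicate block gave 6158 calls, and 2 members lower. At 17.6 to 22.9 counts per CPM, emx1 and emx3 carry the widest errors of the members.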
